A study of Mus musculus with 14 samples.

Results

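The MHC class I antigen presentation pathway was followed in SCp2 mouse mammary epithelial cells through 10 genes: H2-K1, H2-D1, B2m, Tap1, Tap2, Tapbp, Psmb8, Psmb9, Psmb10 and Nlrc5. A probe set was taken when the annotation of the array named 1 of these genes and no other gene, which gave 27 of the 45037 probe sets that are not controls, and 10 of 18193 named genes. H2-D1 had 9 such probe sets, H2-K1 and Tap1 had 4 each, B2m, Tapbp and Psmb8 had 2 each, and Tap2, Psmb9, Psmb10 and Nlrc5 had 1 each. A further 3 probe sets that name a member together with another gene were left out of the counts.

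Class I molecules show fragments of a cell's own proteins to cytotoxic T cells. The proteasome cuts proteins into peptides, the Tap1 and Tap2 transporter carries them into the endoplasmic reticulum, and tapasin (Tapbp) helps to load them onto a heavy chain (H2-K1 or H2-D1) paired with the light chain beta-2 microglobulin (B2m). Epithelial cells hold this pathway at a resting level, and interferon is known to raise it together with Psmb8, Psmb9 and Psmb10, the catalytic subunits of the immunoproteasome, and with Nlrc5, the transactivator of class I genes.

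The dishes were treated with MMP3, a secreted protease that cuts matrix and cell surface proteins, or kept as controls, for 3 days in DMEM with 2% fetal calf serum. Experiment A held an MMP3 dish and a control dish at each of 3 plating densities, 50K, 100K and 250K cells per 35 mm dish, and experiment B held the same with 25K added. Each dish gave 1 Affymetrix array, 6 in A and 8 in B, so every combination of agent, density and experiment was 1 array. SCp2 is a single established line. Nothing in the labels ties dishes to separate cultures, and p-values therefore reflect only how far dishes scattered around the fitted terms, which may be technical. No dish was repeated at the same agent, density and experiment. In the fits to A and to B the scatter was thus each agent's departure from a straight line in log2 density, and not a spread between repeated dishes. Values are relative log2 expression: 0 is a probe set's own median across the 14 arrays. They give differences between arrays and no level, and the number of arrays limits their precision.

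The arrays of experiment B did not fall by agent, for Ifit1 as for most class I genes. Ifit1, an interferon-induced gene whose probe set 1450783_at spans the arrays widely, was at 2.83, 3.96 and 4.21 on the MMP3 arrays of A at 50K, 100K and 250K, against -2.91, -2.98 and -2.94 on the control arrays. In B it was at -2.83, 4.53, -2.97 and 5.15 on the MMP3 arrays at 25K, 50K, 100K and 250K, against -2.93, 3.71, -2.93 and 4.26 on the control arrays. Both agents in B were therefore high at 50K and 250K and low at 25K and 100K, and the 4 arrays labelled MMP3 overlapped fully with the 4 labelled control. Whether this came from the dishes or from their labels was not tested, and the labels were kept as given. The MMP3 100K array of B also had the widest spread of values over all probe sets (SD 0.869, against 0.232 to 0.412 on the other arrays).

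The upstream sequences of 4 members that rose in experiment A are shown, because class I genes share control elements there. Tapbp also rose in A, but its promoter held no match to any motif searched, and it is not printed. RefSeq promoters on build GRCm38.p6 were matched for 8 of the 10 genes (9 promoters), and the 180 bases before an annotated start of H2-K1 (chr17:34000348-34000527, minus strand), H2-D1 (chr17:35262914-35263093, plus strand), B2m (chr2:122147507-122147686, plus strand) and Tap1 (chr17:34187376-34187555, plus strand) read as follows, 5′ to 3′. Capitals mark matches to the motifs searched.
H2-K1: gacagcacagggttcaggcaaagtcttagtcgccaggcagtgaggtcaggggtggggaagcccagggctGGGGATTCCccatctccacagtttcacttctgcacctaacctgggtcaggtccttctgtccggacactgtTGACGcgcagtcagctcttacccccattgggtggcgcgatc
H2-D1: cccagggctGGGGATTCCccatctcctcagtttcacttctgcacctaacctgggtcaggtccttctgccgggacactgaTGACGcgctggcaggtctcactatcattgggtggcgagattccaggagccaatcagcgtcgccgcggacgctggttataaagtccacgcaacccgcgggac
B2m: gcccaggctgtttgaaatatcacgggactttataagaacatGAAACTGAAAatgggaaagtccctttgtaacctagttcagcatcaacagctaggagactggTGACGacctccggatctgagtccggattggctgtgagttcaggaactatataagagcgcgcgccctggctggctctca
Tap1: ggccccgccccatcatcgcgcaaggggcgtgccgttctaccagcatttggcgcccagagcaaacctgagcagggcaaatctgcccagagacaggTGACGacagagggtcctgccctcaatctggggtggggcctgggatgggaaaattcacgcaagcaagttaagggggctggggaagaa

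In these windows GGGGATTCC in H2-K1 and H2-D1 matched the kappa B motif, GGGNNTTCC, the bases GAAACTGAAA in B2m matched the core of the interferon-stimulated response element, which is GAAA, any 2 bases and GAAA, and TGACG, the core of the X2 box, was present in all 4. The kappa B match lay at -111 to -103 from the start in H2-K1 and at -171 to -163 in H2-D1, and the response element core lay at -139 to -130 in B2m. The printed matches did not overlap each other. Motifs were searched on both strands over promoters of 300 bases, 250 before the start and 50 after it. Only exact matches to these patterns were counted, so a promoter without a match, as for the response element in the heavy chains, may still hold a variant of it. Of 32851 mouse promoters, 5.82% held the kappa B motif, 3.44% the response element core, 20.8% the X2 core and 8.30% the gamma-activated site, TTCNNNGAA, of which Psmb8 held the 1 match among the members. Among the 9 member promoters, 3 held the kappa B motif (2 of them overlapping promoters of H2-K1), 1 the response element core and 6 the X2 core, where the Tap1 and Psmb9 matches are the same bases, as are those of both H2-K1 promoters. Tap1 and Psmb9 are read in opposite directions from a shared stretch, and their promoter windows had 275 bases in common. The RefSeq sequences are those of the mouse reference strain, whereas SCp2 descends from a BALB/c culture. H2-K1, H2-D1, B2m and Tap1 had a match and passed in A, and Psmb10 had no match and did not pass. Tapbp passed with no match, and Psmb9 (X2 core) and Psmb8 (gamma-activated site) had a match and did not pass. A relation between matches and calls was not tested. A match describes letters in a window and not a bound site.

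By position on GRCm38.p6, 7 of the 10 genes lie in the MHC region of chromosome 17, from Tapbp (33919478 to 33929290) and H2-K1 (33996012 to 34000619) through Psmb9 (34182030 to 34187330), Tap1 (34187556 to 34197225), Psmb8 (34198195 to 34201454) and Tap2 (34204479 to 34216321) to H2-D1 (35263094 to 35267497). B2m lies on chromosome 2 (122147687 to 122153082), and Psmb10 (105935728 to 105938392) and Nlrc5 (94434335 to 94527272) lie on chromosome 8. The printed H2-K1 window lies within the span given for the gene, because it precedes the start of a transcript that begins inside that span.

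**Figure D1:**
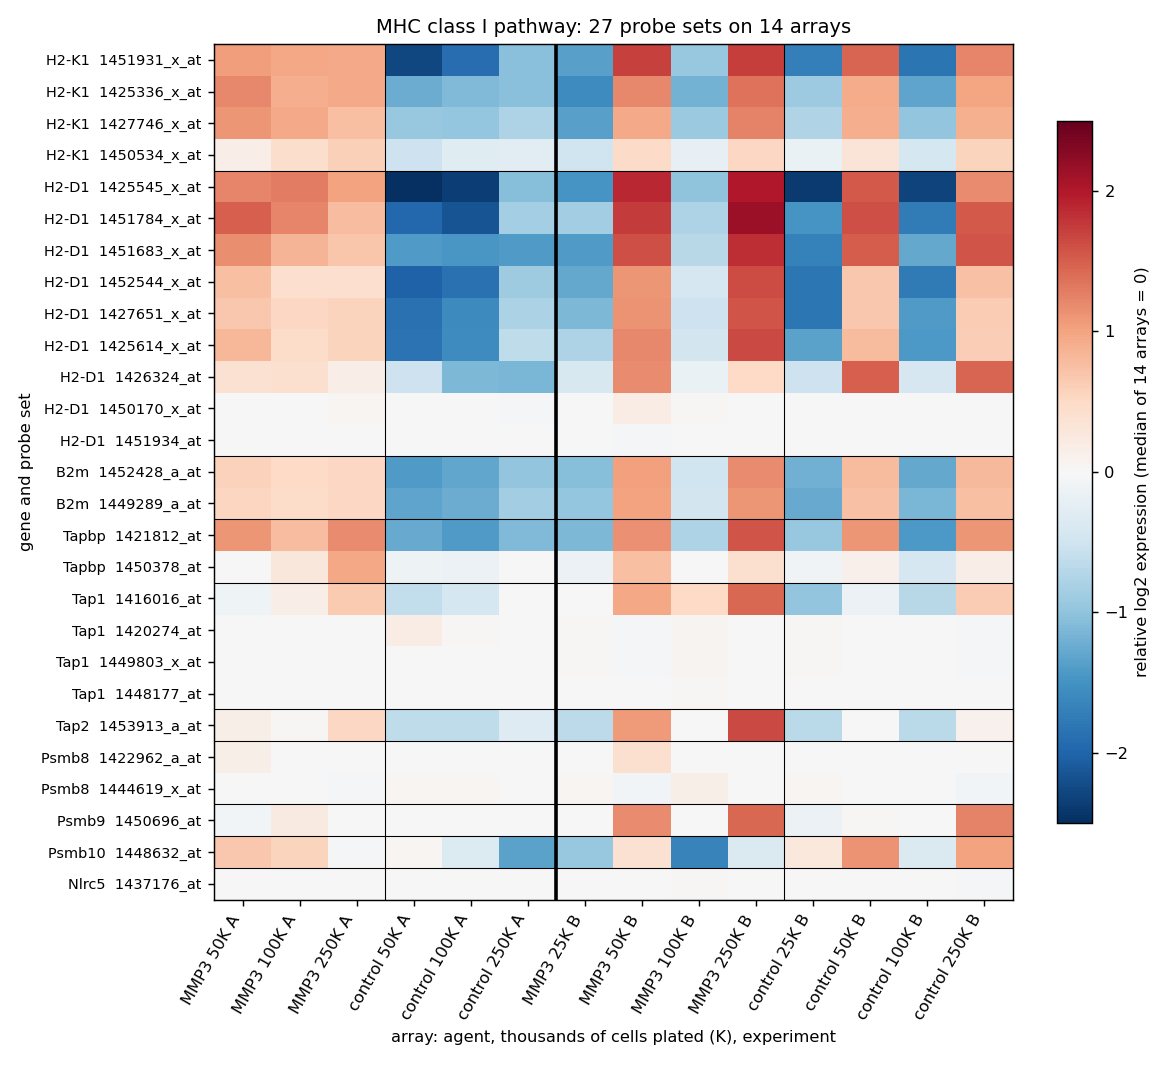
Relative log2 expression of the 27 probe sets (rows, grouped by gene) on the 14 arrays (columns, MMP3 left of control within each experiment), with red above and blue below the median of the 14 arrays. In experiment A the 4 probe sets of H2-K1, 7 of the 9 of H2-D1, both of B2m and 1421812_at of Tapbp are red on the 3 MMP3 arrays and blue on the 3 control arrays, and in experiment B they are red at 50K and 250K and blue at 25K and 100K under both agents.

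In experiment A, the MMP3 dishes had more signal than the control dishes for the heavy chains, the light chain and part of the loading machinery: 8.80-fold for H2-D1, 6.61-fold for H2-K1, 3.41-fold for B2m, 4.88-fold for Tapbp and 1.50-fold for Tap1, each gene being represented by whichever of its probe sets varied most across the 14 arrays. With all probe sets of a gene averaged, the log2 differences were smaller: 1.74 for H2-D1, 1.87 for H2-K1 and 1.40 for Tapbp, against 3.14, 2.73 and 2.29 by the single probe sets, and 1.71 for B2m, against 1.77. With limma fitted to all 45037 probe sets and Benjamini-Hochberg adjustment, 13 of the 27 class I probe sets rose and 0 fell at a threshold of 0.05. In the same fit 4.11% of all probe sets were called, 2.41% as higher in MMP3. The median log2 difference of the 27 was 0.94, beside -0.018 for all probe sets. The 13 calls were 4 of 4 probe sets of H2-K1, 5 of 9 of H2-D1, both of B2m, 1 of 2 of Tapbp and 1 of 4 of Tap1, with 0 of 6 among Tap2, Psmb8, Psmb9, Psmb10 and Nlrc5. The fit to A leaves 2 residual degrees of freedom, and with any 1 of its 6 arrays left out, which leaves 1, no member passed, and neither did any of the 45037 probe sets. At an unadjusted p under 0.05, 18 of the 27 and 10347 of all probe sets were past the threshold in the complete fit. After quantile normalization 4 members passed, and H2-D1, Tapbp and Tap1 did not by these probe sets (adjusted p = 0.0637, 0.0626 and 0.0842, limma). With each matched pair of dishes as a block, 5 passed: 1425336_x_at of H2-K1, 1451683_x_at of H2-D1, 1421812_at of Tapbp, 1416016_at of Tap1 and the probe set of Tap2, which did not pass in the fit without that block. Both of B2m, 1451931_x_at of H2-K1 and 1425545_x_at of H2-D1 did not pass with it. In bulk RNA, fewer or more cells of a kind and less or more RNA per cell cannot be told apart.

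H2-K1, a classical heavy chain, had probe set 1451931_x_at at 1.05, 0.96 and 0.95 on the MMP3 arrays of A at 50K, 100K and 250K, against -2.27, -1.90 and -1.05 on the control arrays. The groups did not overlap, the MMP3 arrays lay within a narrow band, and the control array at 250K was the highest of the controls. The log2 difference was 2.73 (SE 0.066, adjusted p = 0.0217, limma). In B the same probe set was at -1.35, 1.70, -0.95 and 1.74 on the MMP3 arrays at 25K, 50K, 100K and 250K, against -1.71, 1.45, -1.84 and 1.22 on the control arrays. The agents overlapped in B, and each MMP3 array lay above the control array of its own density by 0.25 to 0.89.

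The other 3 probe sets of H2-K1 rose in A by 2.14 (1425336_x_at, adjusted p = 0.0272, limma), 1.83 (1427746_x_at, adjusted p = 0.0199) and 0.77 (1450534_x_at, adjusted p = 0.0487). They did not share the order of the pairs in B: at 25K the MMP3 array was below the control array by all 3, with differences of -0.67, -0.61 and -0.34. The 4 probe sets of 1 gene thus gave the same direction in A and different signs at 25K in B.

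H2-D1, the second classical heavy chain, had probe set 1425545_x_at at 1.21, 1.29 and 1.01 on the MMP3 arrays of A, against -2.48, -2.36 and -1.06 on the control arrays, in order of density. The groups did not overlap, and the control array at 250K again stood above those at 50K and 100K. The log2 difference was 3.14 (SE 0.21, adjusted p = 0.0405, limma). In B the MMP3 arrays were at -1.47, 1.89, -1.01 and 2.00 from 25K to 250K, against -2.40, 1.54, -2.32 and 1.18 on the control arrays. The high and low arrays were those of H2-K1, and the MMP3 array was the higher of each pair, by 0.34 to 1.31. Probe set 1426324_at, which lacks the suffix of shared probes, was at -0.40, 1.18, -0.16 and 0.50 on the MMP3 arrays of B from 25K to 250K, against -0.52, 1.49, -0.42 and 1.46 on the control arrays. By it the MMP3 array was the lower at 50K and 250K, with differences of -0.31 and -0.96.

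Of the other 8 probe sets of H2-D1, 4 rose in A, by 1.97 to 2.33 with adjusted p between 0.0206 and 0.0440 (limma). Probe set 1451784_x_at had a log2 difference of 2.82 and an adjusted p of 0.0571, and 1426324_at had 1.24 and 0.0672, so neither passed although the A groups did not overlap in either. The remaining probe sets, 1450170_x_at and 1451934_at, spanned only 0.20 and 0.040 over all 14 arrays and had differences of 0.013 and -0.013. Of the 13 heavy chain probe sets, 11 carry the suffix _x_at, which marks probes that also match other transcripts, so the share of each heavy chain in these signals cannot be told apart. Both exceptions belong to H2-D1 and neither passed.

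B2m is a single gene outside the MHC region, and both of its probe sets rose in A, though not with matched pairs as a block. Probe set 1452428_a_at was at 0.58, 0.50 and 0.52 on the MMP3 arrays at 50K, 100K and 250K, against -1.41, -1.31 and -0.99 on the control arrays. It had the same form as the heavy chains, level across the MMP3 dishes and highest at 250K among the control dishes, with no overlap. The log2 difference was 1.77 (SE 0.039, adjusted p = 0.0213, limma), and 1449289_a_at had 1.64 (SE 0.054, adjusted p = 0.0240).

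In B, B2m was at -1.07, 1.02, -0.50 and 1.17 on the MMP3 arrays from 25K to 250K, against -1.20, 0.79, -1.27 and 0.80 on the control arrays. Each MMP3 array was above its control array, by 0.12, 0.23, 0.77 and 0.37, differences below the distance between the high and the low arrays of either agent.

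Tapbp, the tapasin gene of the peptide-loading complex, had probe set 1421812_at at 1.10, 0.77 and 1.19 on the MMP3 arrays of A, against -1.27, -1.42 and -1.11 on the control arrays. The groups did not overlap and neither group had an order by density. The log2 difference was 2.29 (SE 0.18, adjusted p = 0.0454, limma). In B the MMP3 arrays were at -1.12, 1.14, -0.77 and 1.56 from 25K to 250K, against -0.95, 1.11, -1.44 and 1.10 on the control arrays, and at 25K the difference was -0.17. The second probe set, 1450378_at, had a difference of 0.51 in A with an adjusted p of 0.0639, and its groups overlapped.

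Tap1, the transporter subunit read away from Psmb9, had another form. Probe set 1416016_at was at -0.10, 0.17 and 0.66 on the MMP3 arrays of A at 50K, 100K and 250K, against -0.61, -0.45 and 0.02 on the control arrays. Both agents were higher at higher density in A, and the groups overlapped because control 250K exceeded MMP3 50K. The log2 difference was 0.59 (SE 0.049, adjusted p = 0.0495, limma).

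In B, Tap1 was at -0.02, 0.96, 0.50 and 1.43 on the MMP3 arrays from 25K to 250K, against -0.98, -0.15, -0.68 and 0.64 on the control arrays. The MMP3 array exceeded its control array in all 7 pairs, by 0.51 to 0.64 in A and by 0.79 to 1.19 in B. Unlike in the heavy chains, the pair differences in B were not smaller than in A. The B fit gave 1.01 (SE 0.30, adjusted p = 0.544, limma) and the fit to all 14 arrays 0.83 (SE 0.18, adjusted p = 0.0689), the smallest adjusted p of any member in each fit, and neither passed. The other 3 probe sets of Tap1 spanned 0.23 or less over all arrays and had differences between -0.081 and -0.016 in A. With the probe sets of Tap1 averaged, the difference in A was 0.12 and no longer passed (adjusted p = 0.0815, limma).

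Tap2, the partner subunit of the transporter, had probe set 1453913_a_at at 0.15, 0.02 and 0.52 on the MMP3 arrays of A, against -0.64, -0.64 and -0.32 on the control arrays. In B it was at -0.64, 1.05, 0.00 and 1.66 on the MMP3 arrays from 25K to 250K, against -0.67, 0.00, -0.68 and 0.10 on the control arrays. The groups did not overlap in A, and the MMP3 array was the higher in all 7 pairs, by 0.02 at 25K and by 0.66 to 1.56 elsewhere. The difference did not pass in A (0.77, SE 0.13, adjusted p = 0.106, limma), in B (0.83, SE 0.43, adjusted p = 0.878) or over all arrays (0.80, SE 0.25, adjusted p = 0.216).

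**Figure D2:**
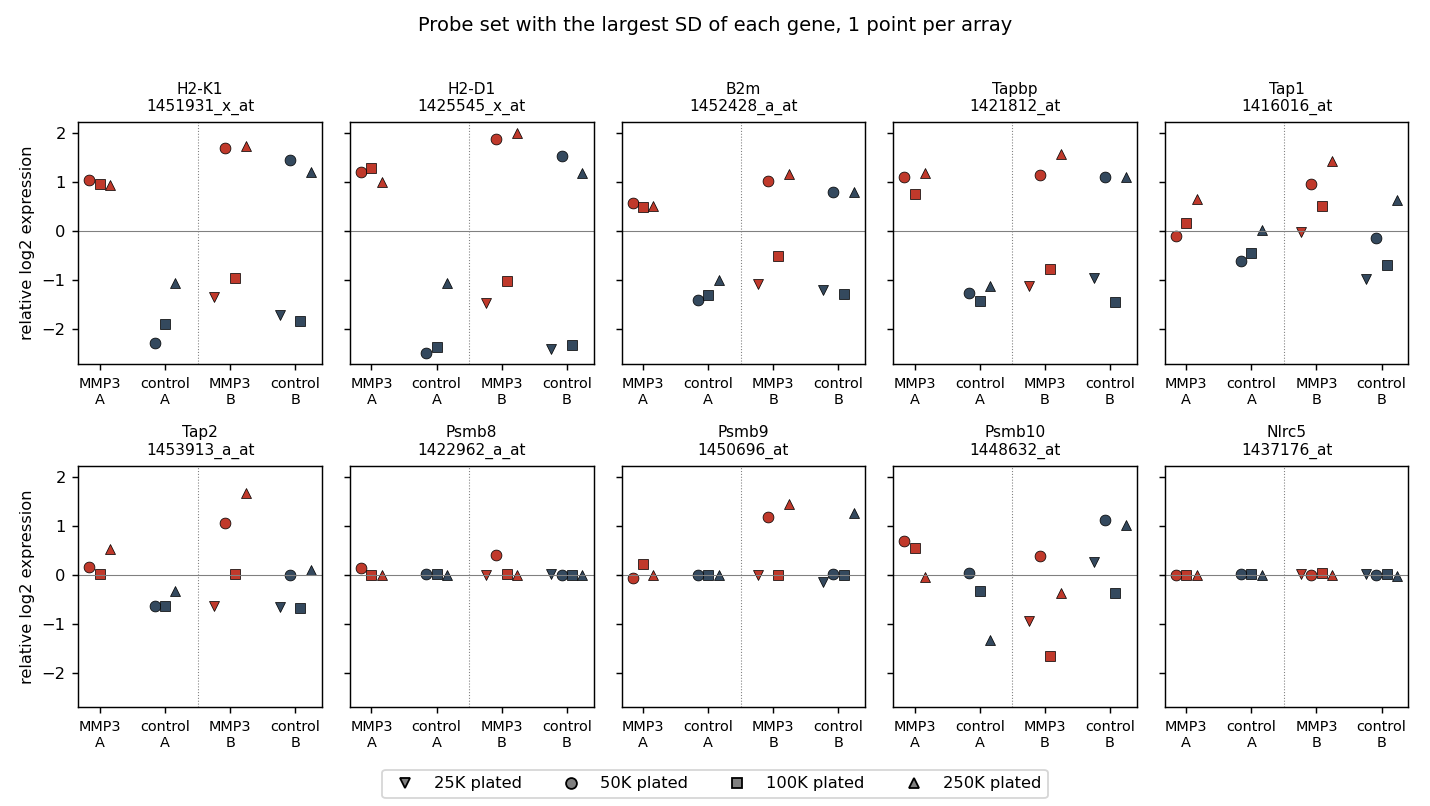
Relative log2 expression on each array, 1 panel per gene with its probe set of largest SD, MMP3 (red) left of control (dark blue) in experiments A and B, with the symbol giving the plating density. The A groups of H2-K1, H2-D1, B2m, Tapbp and Tap2 do not overlap, Tap1 overlaps, Nlrc5 stays near 0, Psmb8 does so except at 0.40 on MMP3 50K of B and 0.14 on MMP3 50K of A, and Psmb10 is ordered oppositely in A and B.

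None of the 4 probe sets of the immunoproteasome subunits passed in A. Psmb10 (1448632_at) was at 0.68, 0.55 and -0.04 on the MMP3 arrays of A at 50K, 100K and 250K, against 0.04, -0.33 and -1.33 on the control arrays. In B it was at -0.95, 0.38, -1.66 and -0.37 on the MMP3 arrays from 25K to 250K, against 0.26, 1.12, -0.37 and 1.01 on the control arrays. The MMP3 array was above its control array in 3 of 3 pairs of A, by 0.64, 0.88 and 1.29, and below it in 4 of 4 pairs of B, with differences of -1.21, -0.74, -1.29 and -1.38.

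The limma fit for Psmb10 gave 0.94 in A (SE 0.11, adjusted p = 0.0712) and -1.15 in B (SE 0.62, adjusted p = 0.892). The test of the difference between the experiments, over the 12 arrays at 50K, 100K and 250K, gave 2.07 with an SE of 0.82, which missed the threshold (adjusted p = 0.642, limma). Under both agents Psmb10 was lower at higher density in A (slope -0.46 per doubling of plated cells, SE 0.060, adjusted p = 0.198, limma), which also did not pass.

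Psmb9 (1450696_at), the subunit gene next to Tap1, was at -0.06, 0.22 and -0.01 on the MMP3 arrays of A, against 0.00, 0.00 and -0.01 on the control arrays. In B it was at 0.00, 1.18, 0.00 and 1.44 on the MMP3 arrays from 25K to 250K, against -0.15, 0.02, -0.01 and 1.25 on the control arrays. Only 3 of the 14 arrays stood clearly above the others, MMP3 50K, MMP3 250K and control 250K, all of B. The differences were 0.055 (SE 0.11, adjusted p = 0.689, limma) in A and 0.38 (SE 0.40) in B. Psmb8, encoded between Tap1 and Tap2, stayed within -0.01 to 0.14 in A by 1422962_a_at, and its highest array was MMP3 50K of B at 0.40. Its 2 probe sets had differences of 0.041 and -0.034 in A.

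Nlrc5, the transactivator, was represented by 1437176_at, which lay between -0.027 and 0.025 on all 14 arrays. Its difference in A was -0.016 (SE 0.0072, adjusted p = 0.241, limma). Like 1451934_at of H2-D1 and 2 probe sets of Tap1, 1448177_at and 1449803_x_at, it had an SD below 0.049, the 40th percentile of all probe sets, and 23 of the 27 were above it. A centred table does not tell a gene near background from a gene that was equal on all arrays, so no statement on Nlrc5 level is possible.

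**Figure D3:**
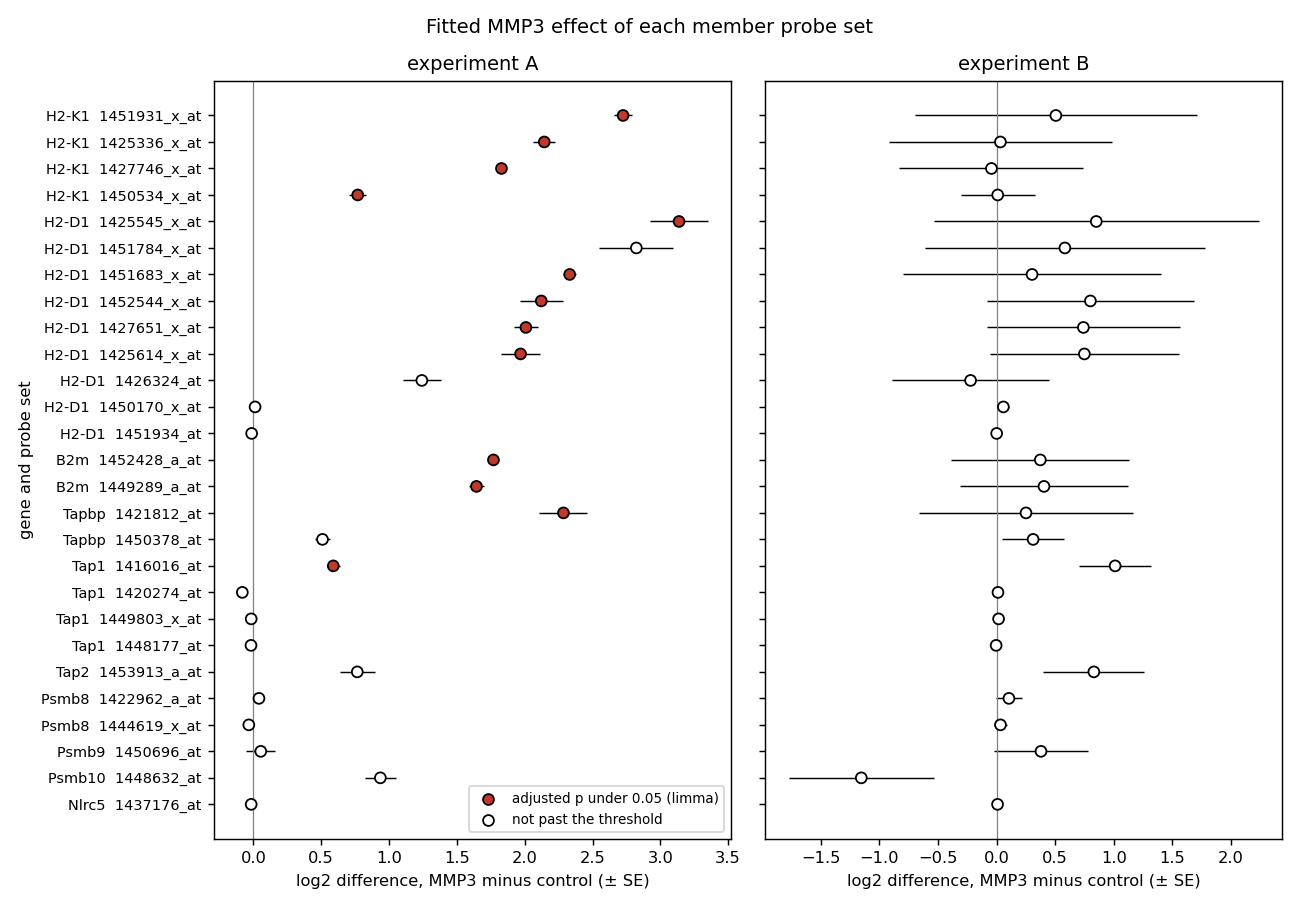
Fitted log2 difference, MMP3 minus control, of each of the 27 probe sets with its SE, in experiment A (left) and experiment B (right), with filled points for an adjusted p under 0.05. The filled points are 13 in A and 0 in B, and the SE of H2-D1 by 1425545_x_at is 0.21 in A and 1.39 in B.

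In experiment B no class I probe set passed. The limma fit called 0% of all 45037 probe sets as well, with 3230 of all and 1 of the 27 members at an unadjusted p under 0.05. The median difference of the members was 0.25, beside 0.0043 for all. No member had MMP3 and control groups without overlap, a pattern found with MMP3 higher in 2.68% of all probe sets in B. In A such a separation was found for 15 of the 27, and for 10% of all probe sets. The arrays of B at 50K and 250K lay above those at 25K and 100K, whatever the agent, for 16 of the 27 members, including all 4 of H2-K1, 7 of H2-D1, both of B2m, both of Tapbp and Psmb9. The share over all probe sets was 6.39%. That grouping was chosen after the values were seen, so it is a description with no test.

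Dishes of the same density and experiment can be set side by side in 7 pairs. The MMP3 array was the higher in all 7 pairs for 11 of the 27 probe sets, and for 2.18% of all probe sets. These were 1451931_x_at of H2-K1, 1425545_x_at, 1451784_x_at, 1451683_x_at, 1452544_x_at, 1427651_x_at and 1425614_x_at of H2-D1, both of B2m, 1416016_at of Tap1 and the probe set of Tap2. Within B alone, 12 of the 27 were higher in all 4 pairs, beside 10.4% of all probe sets. The additional one was Psmb9.

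**Figure D4:**
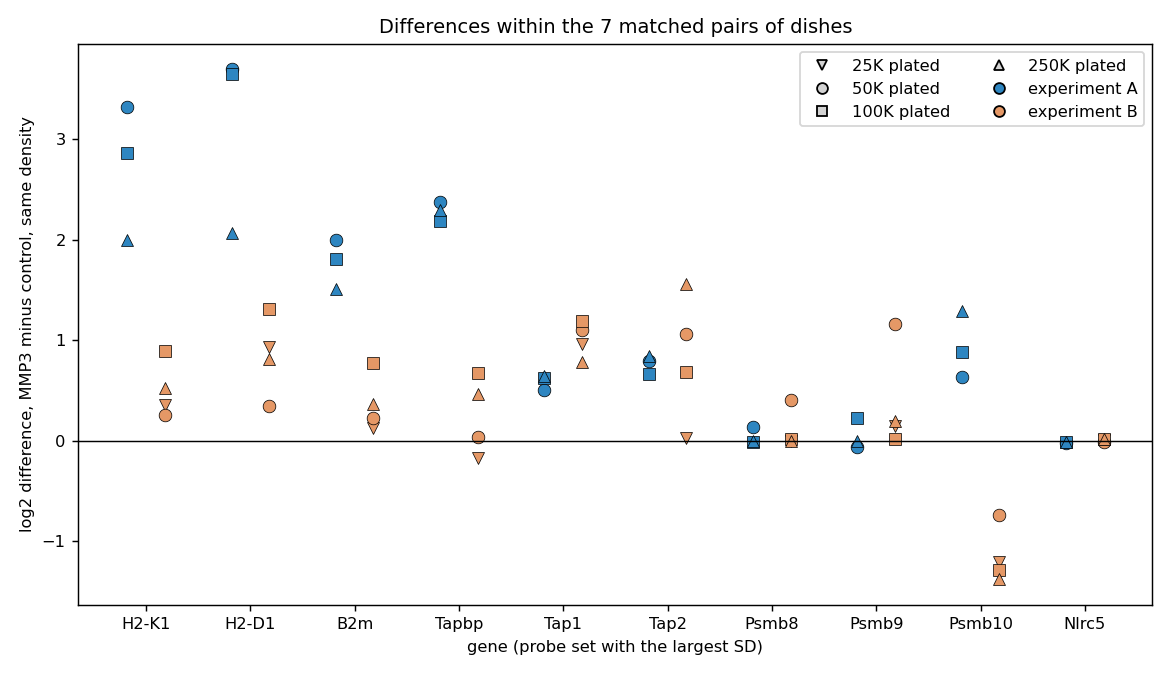
Log2 difference between the MMP3 and the control dish of the same density in each of the 7 pairs, for the probe set of largest SD of each gene, with experiment A in blue and experiment B in orange. H2-K1, H2-D1, B2m and Tapbp have larger differences in A than in B in every pair, Tap1 has all 7 above 0, and Psmb10 is above 0 in A and below 0 in B.

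In the fit to all 14 arrays, which carries experiment as a block, the members had a median difference of 0.76 and none passed, while 0.619% of all probe sets did. At an unadjusted p under 0.05 there were 6 members and 4570 probe sets in all. The median of the members' difference between the experiments, A minus B, was 1.17. No member passed that test, nor did any probe set (0%), and 1 member, Psmb10, and 3473 of all were at an unadjusted p under 0.05. By that test the fold changes of A were not shown to differ from those of B, where the SE of the heavy chains reached 1.39. It did not pair dishes of the same density, so the distance between high and low arrays of B entered its SE. Within pairs, H2-K1 (1451931_x_at) differed by 1.99 to 3.32 in A and 0.25 to 0.89 in B. H2-D1 (1425545_x_at) differed by 2.07 to 3.70 and 0.34 to 1.31. Tap1 (1416016_at) went the other way, with 0.51 to 0.64 and 0.79 to 1.19. A paired form of the test was not run.

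The median density slope of the 27 per doubling of plated cells was 0.0069 in A, 0.35 in B and 0.29 over all arrays. Members went both ways in A, from -0.46 for Psmb10 to 0.30 for Tap1. No member passed, and no probe set did in any of the 3 fits (0% in A, 0% in B and 0% over all arrays). At an unadjusted p under 0.05 there were 8 members and 7054 of all probe sets in A, 1 and 1406 in B, and 2 and 3242 over all arrays. Tap1 had the smallest p of the members in each, with slopes of 0.30 in A (SE 0.026, adjusted p = 0.164, limma), 0.38 in B (SE 0.12, adjusted p = 0.954) and 0.36 over all arrays (SE 0.079, adjusted p = 0.221).

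The representative probe sets of the members did not all share a pattern. Over the 14 arrays, H2-K1 correlated with H2-D1 at Pearson r = 0.995 and with B2m at 0.994, B2m with Tapbp at 0.985, and Tap1 with Tap2 at 0.902, whereas Tap1 and Psmb10 had r = -0.041. These arrays share dishes, experiments and scaling, so the values are descriptions. The probe sets of H2-K1 and H2-D1 used here also both carry the suffix _x_at, so shared probes can raise their r. By the same measure the gene most like H2-K1, H2-D1 and B2m outside the pathway was Gstm5, a glutathione transferase (r = 0.985, 0.990 and 0.984). For Tapbp it was Clu (clusterin, r = 0.989), for Tap1 Ifi27l2a (r = 0.954), for Tap2 Nupr1 (r = 0.963), for Psmb9 Zbp1 (r = 0.982), for Psmb10 Plaur (r = 0.988), and for Psmb8 Slc13a5 (r = 0.980). For Nlrc5, which hardly varied, it was Trim15 (r = 0.989). The Psmb8 probe set stood clearly above 0 only on MMP3 50K of B (0.40) and MMP3 50K of A (0.14). Elsewhere it lay between -0.012 and 0.016, so its r rests on few arrays.

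Other genes of the pathway were read from lists written from general knowledge. Their counts in A stand beside 4.11% of all probe sets called in that fit, 2.41% as higher in MMP3. Of the genes that assist loading or trim peptides, 3 of 20 probe sets rose in A and 0 fell (median 0.16). They were Erap1, the aminopeptidase that trims peptides in the endoplasmic reticulum, with 1.60 (SE 0.12, adjusted p = 0.0436, limma), Uggt1, a folding sensor, with 0.63 (adjusted p = 0.0441), and the chaperone Canx with 0.44 (adjusted p = 0.0394). Other probe sets of the same genes did not pass. They had differences of 1.49 for Erap1, 0.48 and -0.014 for Uggt1, and 0.11 and -0.052 for Canx. By its called probe set, Erap1 lay between 0.75 and 1.31 on the MMP3 arrays of A, against -0.79 to -0.33 on the control arrays. Its difference in B was -0.81 (SE 0.71) and did not pass.

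Among proteasome activators and assembly factors, 2 of 19 rose and 0 fell. Psme1, a subunit of the activator that caps the proteasome, had 1.15 (SE 0.071, adjusted p = 0.0390, limma), with 0.52 to 0.70 on the MMP3 arrays of A against -0.60 to -0.47 on the control arrays, and the assembly factor Pomp had 0.21 (adjusted p = 0.0393). Of the 28 probe sets of the constitutive proteasome core none passed (median -0.029), and the smallest p belonged to Psmb1 (-0.13, SE 0.022, adjusted p = 0.103, limma) and Psmb4 (0.083, SE 0.016, adjusted p = 0.128). The other class I heavy chains, with 8 probe sets for 6 of the 15 listed genes, had none past the threshold (median 0.19). The rest of the listed genes had no probe set naming them alone, so nothing is said of them. The probe sets of H2-Q2, H2-T24 and H2-Q10 hardly varied over the 14 arrays (SD 0.053, 0.021 and 0.029). H2-M3 had 1.50 (SE 0.19, adjusted p = 0.0766, limma) and Cd1d1 had 0.32 (SE 0.053, adjusted p = 0.103).

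Of 33 probe sets of class I regulators, interferon receptors and their kinases, 5 rose and 1 fell in A (median 0.048). For the genes called, the value is that of the called probe set, and any other probe sets of the same gene are not given. The interferon receptor subunit Ifngr2 had 1.16 (SE 0.081, adjusted p = 0.0414, limma), the transcription factor Stat2 had 1.04 (adjusted p = 0.0402), Ifngr1 had 0.51 (adjusted p = 0.0412) and the kinase Jak1 had 0.48 (adjusted p = 0.0323). Rfxap, a subunit of the factor that binds the X box, was the 1 that fell, with -0.39 (limma, adjusted p = 0.0352), and the fifth that rose, named outside the rule after its value was seen, was the receptor subunit Ifnar2 with 0.36. Genes of MHC class II had 0 of 15 probe sets past the threshold and 3 above the SD of 0.049, with Ciita, the class II transactivator, at -0.032 (adjusted p = 0.241, limma) and H2-Aa at -0.029 (adjusted p = 0.241). No probe set of any of these lists passed in B or over all arrays.

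**Figure D5:**
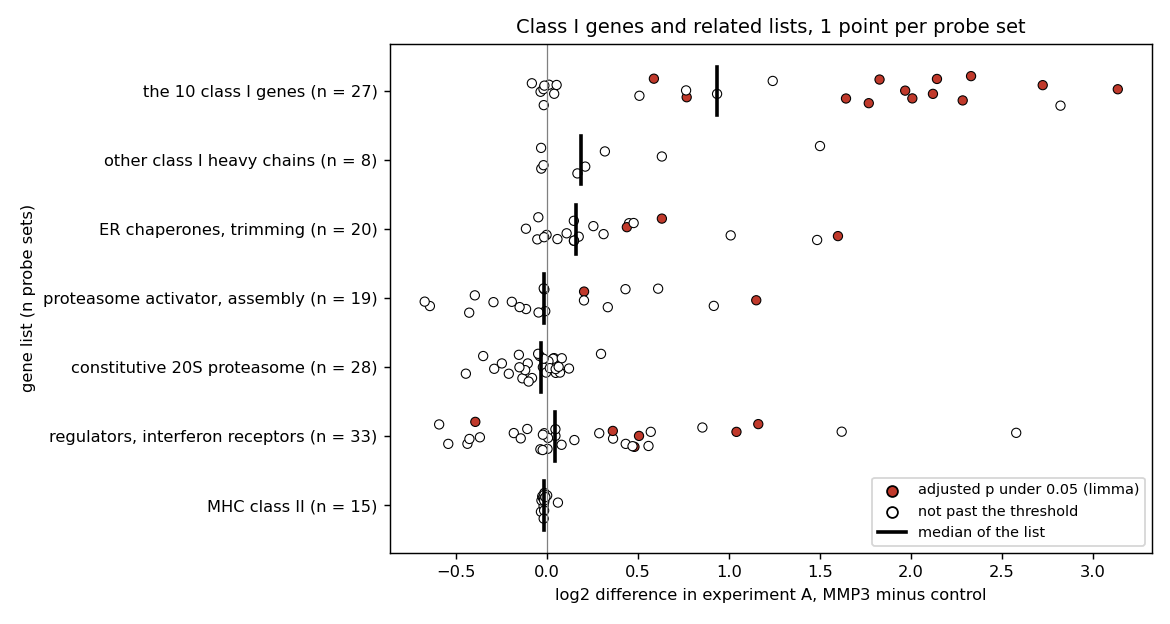
Log2 difference in experiment A, MMP3 minus control, of each probe set of the 10 class I genes and of 6 lists of related genes (1 point per probe set, median as a bar, filled points for an adjusted p under 0.05). The class I genes have a median of 0.94, and the lists have medians from -0.029 for the constitutive proteasome to 0.19 for the other heavy chains.

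Markers of other cell types were set beside these results. In A none of the probe sets of macrophage (10), dendritic cell and lymphocyte (12), fibroblast (11) or endothelial (5) markers passed, and 0 of the dendritic cell and lymphocyte set and 0 of the endothelial set were above the SD of 0.049. The mean of the dendritic cell and lymphocyte probe sets was -0.010 to -0.002 on the MMP3 arrays of A and -0.001 to 0.017 on the control arrays. The mean of the macrophage set was -0.016 to -0.003 on the MMP3 arrays and 0.018 to 0.18 on the control arrays, and that of the fibroblast set -0.097 to 0.014 against -0.029 to 0.25. The endothelial mean was -0.010 to -0.001 on the MMP3 arrays and 0.001 to 0.019 on the control arrays. None of these 4 means was higher on an MMP3 array of A than on the highest control array. The median of all probe sets was itself -0.009 to -0.001 on the MMP3 arrays of A and 0.001 to 0.016 on the control arrays. The dendritic cell and lymphocyte mean and the endothelial mean lay close to these medians, so they cannot tell whether such cells were present. In B the macrophage mean reached 0.47 on the MMP3 arrays, against at most 0.061 on the control arrays, with Cd68 between -0.002 and 4.61 on the MMP3 arrays. A single Cd68 value of 4.61 can carry nearly all of such a mean over 10 probe sets. The mean is thus not shown to be a rise shared by the macrophage markers, and its part in the class I values of B was not tested.

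Of 13 epithelial probe sets, 2 rose and 1 fell in A, where 4.11% of all probe sets were called. The adhesion genes Epcam (1.18, SE 0.020, adjusted p = 0.0191, limma) and Cdh1 (0.89, adjusted p = 0.0334) rose with the class I genes, and the basal keratin Krt5 fell (-1.03, adjusted p = 0.0234). The mean of the 13 was 0.036 to 0.10 on the MMP3 arrays of A and -0.057 to 0.012 on the control arrays. In B it was -0.53 to 0.19 on the MMP3 arrays and -0.020 to 0.049 on the control arrays. Centred values give no level, so the labelled cell type could not be checked by its markers. The difference between the 3′ and 5′ control probe sets of Gapdh was 0.040 to 0.17 on the MMP3 arrays of A and -0.027 to 0.030 on the control arrays. The mean of the 18S control probe sets was 0.77 to 0.95 on the MMP3 arrays and 0.54 to 0.69 on the control arrays. Both measures moved with agent in A as the class I genes did and overlapped between the agents in B, and their part in the result was not tested. The same 3′ to 5′ difference of actin overlapped in A, at -0.14 to 0.093 on the MMP3 arrays and -0.049 to 0.11 on the control arrays.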

How the data were processed

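RNA of 14 SCp2 dishes was measured on Affymetrix mouse expression arrays from 200 ng of total RNA. The deposited table holds log2 expression values that, per the submitters' processing notes, the authors made with RMA (no version stated). The median of each of the 45101 probe sets over the arrays was 0 within 1e-06, a centring seen in the values, and the lowest and highest values were -7.18 and 6.62. No source names the log base; RMA gives log2, and folds rest on it. A higher value was taken as more signal.

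Names came from the platform annotation: of 45037 probe sets that are not controls, 34945 had 1 symbol, 932 several and 9160 none, with 34741 symbols updated through Entrez identifiers. All 45037 were fitted with limma 3.58.1 in R 4.3.3 (lmFit, eBayes, Benjamini-Hochberg, threshold 0.05). The fits to A (2 residual degrees of freedom) and B (4) had agent, centred log2 density and their product. The fit to all arrays (9) added experiment as a block, since the labels name separate experiments. Deviations from group means correlated at 0.05 on average between arrays of 1 experiment (range -0.65 to 0.64, 15 pairs). The test between experiments used 12 arrays (7). Some of the fits were also run on simulated data, with noise drawn independently for each probe set and array. Real arrays can share effects across probe sets, so that run lends no weight to the calls in A.

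All 10 genes were named, each represented by the probe set with the widest variation where 1 value is given. Of each related list, up to 4 called genes with the largest difference in A were named, or the 2 with the smallest p where none was called. The most similar gene was the one with the highest Pearson correlation. Members, lists and tests were chosen with earlier results of these data known. Alternatives were a filter on SD, quantile normalization, a robust prior, other terms, averaged probe sets per gene and each array left out. Promoters came from RefSeq (GRCm38.p6).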

Additional observations from a re-analysis of the deposited data

Results flagged for a closer look

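Psmb10 differed in sign between the experiments in all pairs of dishes. The mean of MMP3 minus control was 2.091 higher in A than in B on the log2 scale, with differences of 0.64 to 1.29 in the 3 pairs of A and of -1.38 to -0.74 in the 4 pairs of B. The limma test of the difference at matched densities was not past the threshold (2.07, adjusted p = 0.642).

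A probe set annotated to both H2-K1 and H2-D1, and so outside the 27 counted, 1424948_x_at, also followed the heavy chains. It was at 1.08, 0.71 and 0.77 on the MMP3 arrays of A at 50K, 100K and 250K, against -0.90, -0.80 and -0.76 on the control arrays, a mean difference of 1.674. In B the MMP3 arrays ran from -1.11 to 1.03 and overlapped with the control arrays, and the arrays at 50K and 250K, between 0.91 and 1.03, lay above those at 25K and 100K, between -1.11 and -0.71, under both agents.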

How the results depend on the processing

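Class I calls in experiment A were higher in MMP3 under each alternative, but their number, 13, changed: 4 passed after quantile normalization between arrays, 7 with a robust prior and 5 with each matched pair of dishes as a block. With the SD filter 18 of 23 fitted members passed, and 12 did without the product of agent and density. H2-K1 (1425336_x_at) and H2-D1 (1451683_x_at) were the 2 members called in all 5. Over all probe sets in A, 5379 of the 27022 fitted with the SD filter were called. Of all 45037, 803, 949 and 1006 were called with quantile normalization, the robust prior and the pair block. Without the product 2515 were called, beside 1853 in the main fit. With 1 array left out, 0 to 10 members passed: none in any of the 6 fits with the product, which leave 1 residual degree of freedom and called 0 of all probe sets. Without the product, chosen after seeing the data, 10 passed without control 250K, 3 without MMP3 100K, 3 without MMP3 250K, 1 without MMP3 50K and 0 without control 50K or control 100K, beside 1079, 793, 733, 72, 0 and 0 of all probe sets. With 1 array left out the sizes ran from 2.67 to 2.85 for H2-K1, 2.97 to 3.52 for H2-D1, 1.73 to 1.83 for B2m, 2.00 to 2.46 for Tapbp and 0.55 to 0.67 for Tap1. Averaging the probe sets of a gene gave 1.87 for H2-K1, 1.74 for H2-D1, 1.71 for B2m, 1.40 for Tapbp and 0.12 for Tap1, of which Tap1 no longer passed.

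Signs changed where differences were small: with 1 array left out, Psmb8 ran from -0.024 to 0.069 and Psmb9 from -0.033 to 0.26 in A, and in B H2-K1 ran from -0.14 to 1.22, B2m from -0.047 to 0.82, Tapbp from -0.29 to 0.78 and Nlrc5 from -2.7e-05 to 0.016. Over all arrays, 1 member passed with the SD filter, and 0 to 1 with 1 array left out, the 1 without MMP3 100K of B. Without the replicate block 0 members and 0 of all probe sets passed, against 279 with it. With the SD filter 589 of the 27022 probe sets fitted passed. With the pair block 14 of all passed, and 0 after quantile normalization. No class I member passed in B, for a density slope or between the experiments under any alternative run. In limits, each combination was 1 array, A has few residual degrees of freedom, no signal over background is known, and shared probes join the heavy chains.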
